A study of Mus musculus with 6 samples.

Results

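The genes described here are 8 genes of nucleotide hydrolysis, purine breakdown and nucleoside uptake, taken by symbol from a table of 54012 genes: Enpp3, Entpd5, Nt5e, Ada, Pnp, Xdh, Slc28a1 and Slc28a2. All 8 were found and all 8 passed the filter on low values, which kept genes averaging 1 TPM or more. TPM is a transcript level corrected for gene length, with an equal total for every library. Total RNA of the small intestine was sequenced from mice 8 to 12 weeks old, 3 of the wild type genotype (WT) and 3 of the genotype TLR4ΔIEC. That name stands for loss of TLR4, which senses lipopolysaccharide of bacteria, from intestinal epithelial cells (IEC). No label names the Cre driver, the strain, the sex or the stretch of small intestine, and no treatment is named for either genotype.

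Nucleotides released by cells or taken in with food are broken down stepwise at the surface of the gut epithelium. Ectoenzymes of the Entpd and Enpp families remove phosphates from ATP, the ecto-5′-nucleotidase Nt5e (CD73) turns AMP into adenosine, and Na+-coupled carriers of the Slc28 family take nucleosides up into the enterocyte. Inside the cell Ada deaminates adenosine to inosine, Pnp splits inosine into hypoxanthine and a sugar phosphate, and Xdh oxidises hypoxanthine through xanthine to uric acid. In mouse small intestine several of these genes are known for expression in enterocytes of the upper villus.

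Promoter sequences were searched for each of the 8 genes that had a window. Those printed are of Enpp3 and Slc28a1, which had the lowest fold changes of the 8 genes, and of Slc28a2. Slc28a1 and Slc28a2, carriers of the same family, differed in level. RefSeq (GRCm38.p6) windows of 300 bases, of which 250 lie upstream of the start site, were matched for 7 of the 8 genes (all but Xdh). The RefSeq starts of Enpp3 (24836195), Nt5e and Pnp lie inside the gene spans given below. Their windows are thus internal to those spans, and the bases upstream of the spans were not searched. Both strands were searched for motifs of factors known from gut epithelium. For the GATA factors these were AGATAA, present in 11.2% of 32851 promoter windows of the same length, and the related motif TGATAA, present in 9.05%; the pair shares its last 5 letters. For HNF4 the motif was CAAAGTCCA, present in 0.475% of windows, and the palindromic HNF1 motif was present in 0.0091%. For the CDX factors the motif TTTATTG was present in 4.60% and the variant TTTATGG in 2.75%. A match is a description of letters and not a binding site. Only the Slc28a2 window held a match: AGATAA at positions −165 to −160 from the start site, on the plus strand, and TTTATTG at −239 to −233, on the minus strand, with no overlap between them. The upstream bases that lie in no annotated exon are given 5′ to 3′ on the gene's strand, with the matches in capitals. They are chr10:24836226-24836445 (minus strand) for Enpp3, chr7:81114549-81114798 (plus strand) for Slc28a1 and chr2:122426185-122426434 (plus strand) for Slc28a2.
Enpp3: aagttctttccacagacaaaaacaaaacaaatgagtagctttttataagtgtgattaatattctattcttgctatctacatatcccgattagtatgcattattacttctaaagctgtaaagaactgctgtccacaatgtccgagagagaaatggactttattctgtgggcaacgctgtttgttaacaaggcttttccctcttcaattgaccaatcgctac
Slc28a1: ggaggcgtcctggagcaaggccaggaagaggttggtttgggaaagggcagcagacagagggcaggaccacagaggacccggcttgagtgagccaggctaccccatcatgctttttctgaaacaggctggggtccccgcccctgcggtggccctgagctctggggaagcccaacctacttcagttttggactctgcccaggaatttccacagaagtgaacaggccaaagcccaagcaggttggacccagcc
Slc28a2: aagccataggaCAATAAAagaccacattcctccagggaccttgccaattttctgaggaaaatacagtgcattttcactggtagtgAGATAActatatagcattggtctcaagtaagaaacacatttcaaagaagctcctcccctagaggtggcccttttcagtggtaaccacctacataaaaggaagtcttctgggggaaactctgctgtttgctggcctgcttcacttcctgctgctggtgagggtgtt

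The libraries had from 20031 to 21842 genes above 0 TPM, and their depth in reads is unknown because TPM keep no read totals. TLR4ΔIEC replicate 2 stood apart, in which 12221 genes reached 1 TPM, where the other 5 libraries had 13197 to 13634. Tlr4 itself stood at 0.57 to 0.70 TPM in WT and 1.22 to 4.81 TPM under the TLR4ΔIEC label, higher in each of the latter (log2 fold change 0.92, limma adjusted p = 0.243). Its low level in whole tissue, where other cells can also express it, does not show a depletion named for epithelial cells. An exchange of labels cannot be told from these values, and each direction below holds only for the libraries as labelled. The epithelial marker Epcam stood at 1200 to 1260 TPM in WT and, without overlap, at 1869 to 2126 TPM in the others. Markers of Paneth cells, of immune cells, of stroma and of blood were also detected in each of the 6, so the RNA came from more than villus epithelium.

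None of the 8 genes passed the threshold across the genome (limma, Benjamini-Hochberg adjusted p of 0.05). Of all 13458 tested genes, 16 passed, which is 0.119% (0.0446% higher and 0.0743% lower). At an unadjusted p under 0.05 there were 5 of the 8 genes, 2 with higher and 3 with lower values in the libraries labelled TLR4ΔIEC, against 21.2% of all tested genes. For 4 of the 8 genes the genotypes had no overlapping values, against 27.6% of all tested genes. The latter were Entpd5 and Pnp, higher in each library labelled TLR4ΔIEC (24.1% of all tested genes were), and Enpp3 and Nt5e, lower in each (3.53% were). The median log2 fold change of the 8 genes was −0.43, beside 0.16 for all tested genes. Fold changes are TLR4ΔIEC minus WT on log2(TPM + 1), which understates the change of low genes.

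Enpp3 (ENSMUSG00000019989, chromosome 10, 24772406 to 24842823, minus strand, GRCm38) encodes an ectoenzyme that hydrolyses extracellular nucleotides, among them ATP. Its level was 11.7, 26.6 and 15.1 TPM in WT replicates 1 to 3 and 2.82, 4.19 and 2.03 TPM in TLR4ΔIEC replicates 1 to 3. The genotypes did not overlap, and the lowest WT library stood above the highest library labelled TLR4ΔIEC. WT averaged 17.8 ± 7.80 TPM and TLR4ΔIEC 3.01 ± 1.09 TPM (SD, n = 3 each), a mean 5.90-fold higher in WT. The log2 fold change was −2.18 (SE 0.33, 95% interval −2.96 to −1.41, limma adjusted p = 0.0800), the lowest of the 8 genes and the gene of rank 44 by p-value among all tested. It passed without TLR4ΔIEC replicate 1 (limma adjusted p = 0.0490) and with array weights (0.0406), and over all 18 alternatives its adjusted p ran from 0.0406 to 0.320. More genes of the whole table passed in those settings, 367 of 13379 and 136 of 13458, against 16 in the fit above. Enpp3 ranked 355 and 65 by p-value there. In whole tissue, fewer cells of a type and less RNA per cell cannot be told apart, for this gene or those that follow.

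Nt5e (ENSMUSG00000032420, chromosome 9, 88327197 to 88372092, plus strand), which acts on the AMP that such enzymes leave, was the least abundant of the 8 in WT. Its values were 4.89, 6.35 and 9.48 TPM in WT, then 3.73, 3.97 and 4.11 TPM under the TLR4ΔIEC label. The WT libraries spread widely (coefficient of variation 34.0%) and the others hardly at all (4.88%), with no overlap. The log2 fold change was −0.64 (SE 0.23, 95% interval −1.19 to −0.09, limma adjusted p = 0.185).

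Entpd5 (ENSMUSG00000021236, chromosome 12, 84373857 to 84409029, minus strand), a nucleoside diphosphatase of the endoplasmic reticulum that serves glycoprotein folding, had values in the other direction. WT values were 51.5, 42.9 and 45.9 TPM, next to 68.0, 143 and 74.8 TPM under the TLR4ΔIEC label. All 3 of the latter lay above all WT libraries, and replicate 2, which also had fewer detected genes, was the highest. The means were 46.8 ± 4.36 and 95.3 ± 41.6 TPM, with a log2 fold change of 0.93 (SE 0.28, 95% interval 0.27 to 1.60, limma adjusted p = 0.141). Without TLR4ΔIEC replicate 2 the log2 fold change was 0.60.

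**Figure D1:**
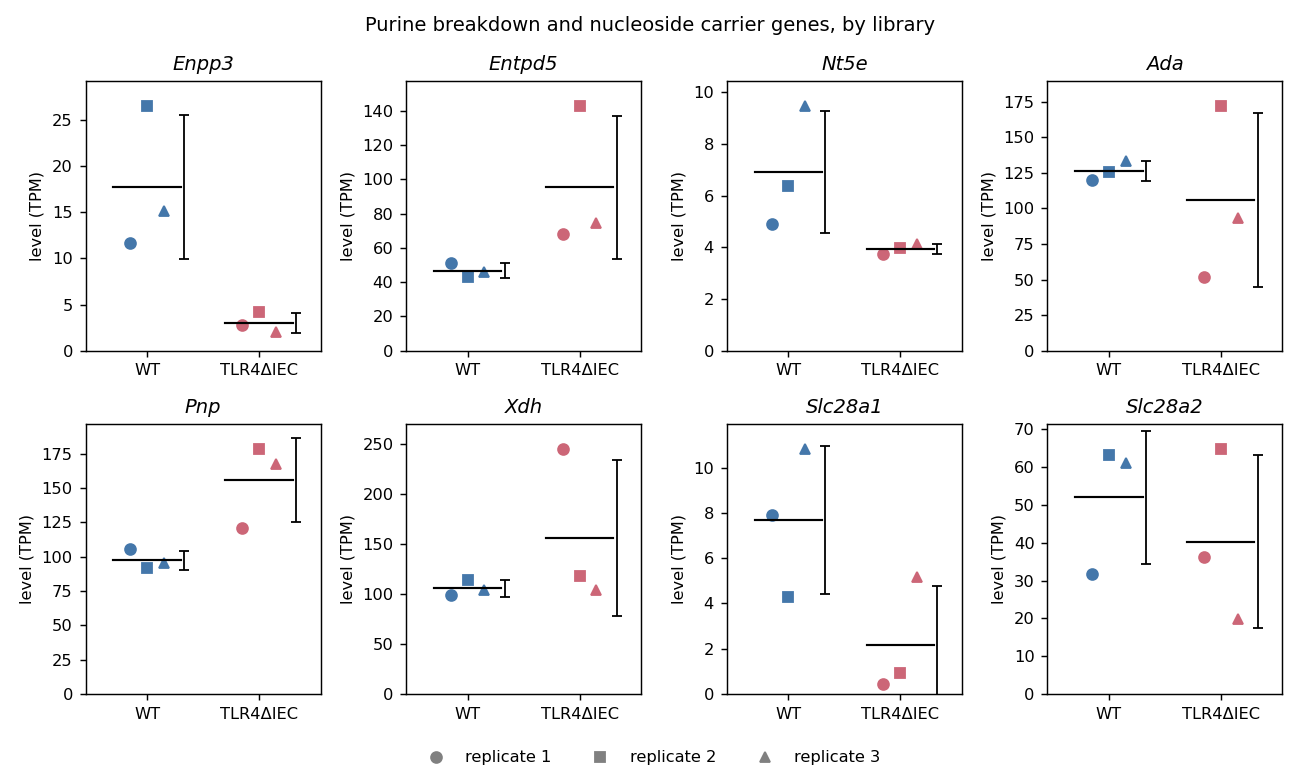
Level of each of the 8 genes in TPM (vertical axis, from 0) in WT and TLR4ΔIEC libraries; each point is a library, its shape the replicate number, the line the mean and the bar 1 SD (n = 3). The genotypes do not overlap for Enpp3, Entpd5, Nt5e and Pnp, and Xdh stands at 245 TPM in TLR4ΔIEC replicate 1 against 98.6 to 118 TPM in the other 5 libraries.

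Ada (ENSMUSG00000017697, chromosome 2, 163726584 to 163750239, minus strand), the adenosine deaminase, had the highest WT mean of the 8 as the table splits the reads of Pnp, which are uncertain. The WT libraries were close together at 120, 126 and 134 TPM, a coefficient of variation of 5.53%. Those labelled TLR4ΔIEC read 51.9, 172 and 93.3 TPM, so 2 lay below all WT libraries and replicate 2 above them, with a coefficient of variation of 57.8%. The log2 fold change was −0.42 (SE 0.39, 95% interval −1.34 to 0.50, limma adjusted p = 0.584). Its direction rested on single libraries: it was 0.0076 without TLR4ΔIEC replicate 1 and −0.85 without TLR4ΔIEC replicate 2.

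Pnp (ENSMUSG00000115338, chromosome 14, 50931082 to 50965237, plus strand), the purine nucleoside phosphorylase that follows Ada, stood at 105, 91.5 and 95.4 TPM in WT. Under the TLR4ΔIEC label it stood at 121, 179 and 168 TPM, each above every WT library. The log2 fold change was 0.65 (SE 0.18, 95% interval 0.23 to 1.08, limma adjusted p = 0.121). It passed without TLR4ΔIEC replicate 1 (limma adjusted p = 0.0435), where 367 of all 13379 tested genes passed. The adjusted p of Pnp ran from 0.0435 to 0.441 over 18 alternatives. Without the genes for alpha-defensins, mitochondrial transcripts and 18S-like RNA in the scaling, the log2 fold change was 0.33 and the genotypes overlapped.

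Reads of Pnp are uncertain one gene at a time. In the annotation Pnp2 and Gm49342 overlap the span of Pnp on the same strand, and over the aligned coding bases Pnp shared 98.2% with Pnp2 and 99.3% with Gm49342. Pnp2 stood at 66.8 to 88.5 TPM in WT and 102 to 186 TPM under the TLR4ΔIEC label, and Gm49342 at 92.6 to 115 and 156 to 194 TPM. The sum of the 3 genes, which depends less on how reads were divided among them, was 295, 274 and 255 TPM in WT and 379, 558 and 491 TPM under the TLR4ΔIEC label. The sums did not overlap between genotypes (log2 difference 0.78, exact two-sided permutation p = 0.1, the smallest that 3 against 3 allows). This sum was formed after the values were seen.

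Xdh (ENSMUSG00000024066, chromosome 17, 73883895 to 73950196, minus strand), the xanthine dehydrogenase that ends the chain in uric acid, stood at 98.6, 115 and 104 TPM in WT. It stood at 245, 118 and 104 TPM under the TLR4ΔIEC label. A single library, TLR4ΔIEC replicate 1, carried the higher mean, and the other two lay at the WT level or just above it. The log2 fold change was 0.45 (SE 0.31, 95% interval −0.29 to 1.19, limma adjusted p = 0.454), and 0.07 without that library. That same library had the lowest Ada level of the 6.

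The concentrative nucleoside carriers differed from each other in level. Slc28a2 (CNT2, ENSMUSG00000027219, chromosome 2, 122426477 to 122461137, plus strand), which prefers purine nucleosides, stood at 31.7, 63.3 and 61.1 TPM in WT and 36.2, 64.9 and 19.8 TPM under the TLR4ΔIEC label. The genotypes overlapped (log2 fold change −0.45, SE 0.45, 95% interval −1.51 to 0.60, limma adjusted p = 0.607). Its log2 fold change ran from −0.87 without TLR4ΔIEC replicate 2 to −0.036 without TLR4ΔIEC replicate 3. Coding bases of Slc28a2 aligned at 94.8% identity with Gm14085, a near copy listed in the table as Slc28a2b at 0.51 TPM or less.

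Slc28a1 (CNT1, ENSMUSG00000025726, chromosome 7, 81114799 to 81170416, plus strand), which prefers pyrimidine nucleosides, stood at 7.92, 4.30 and 10.8 TPM in WT. Those labelled TLR4ΔIEC read 0.45, 0.94 and 5.16 TPM. Replicates 1 and 2 lay far below WT, while replicate 3 lay above WT replicate 2. The log2 fold change was −1.67 (SE 0.56, 95% interval −3.0 to −0.34, limma adjusted p = 0.166). Over 17 alternatives it ran from −2.33 with a pseudocount of 0.1 TPM to −0.84 with one of 5 TPM, and was −1.04 with array weights. It was −2.30 without TLR4ΔIEC replicate 3 and −1.25 without TLR4ΔIEC replicate 1. Without the genes for alpha-defensins, mitochondrial transcripts and 18S-like RNA in the scaling it was −2.06 and the genotypes no longer overlapped. Over aligned coding bases Slc28a1 and Slc28a2 shared 72.1%.

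**Figure D2:**
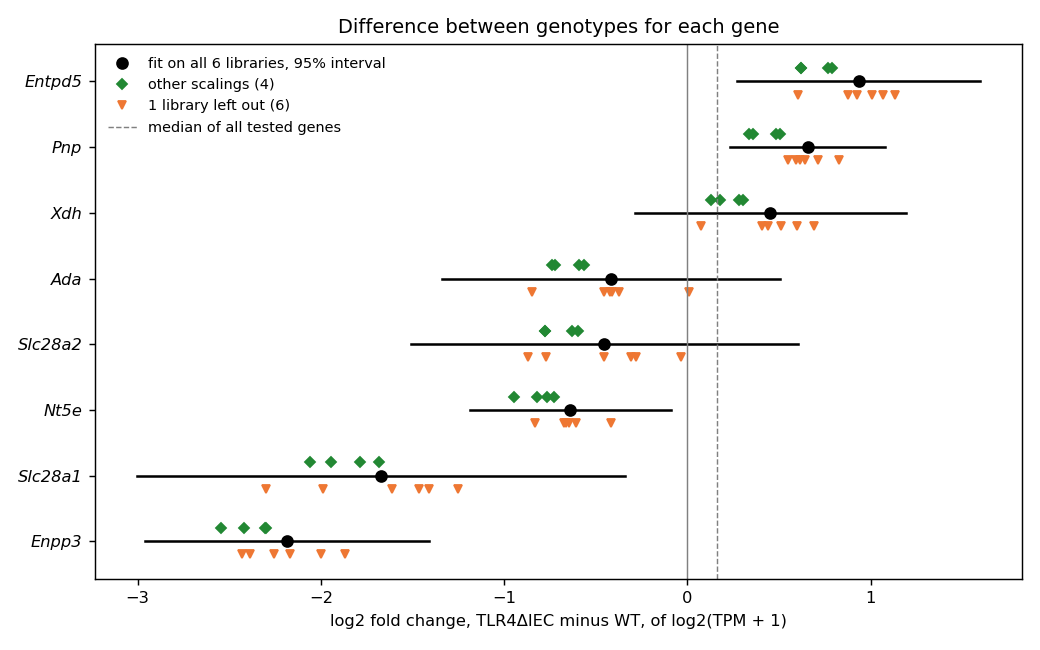
Log2 fold change (TLR4ΔIEC minus WT, of log2(TPM + 1), horizontal axis) of each gene with its 95% interval from the limma fit on 6 libraries (black), under 4 other scalings (diamonds) and with 1 library left out (triangles). Enpp3 lies at −2.18 with its 6 left-out values between −2.43 and −1.87, and the left-out values of Ada run from −0.85 to 0.0076; the dashed line is the median of all tested genes, 0.16.

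In order of their mean WT level, a scale corrected for length, the 8 were Ada (126 TPM), Xdh (106), Pnp (97.4), Slc28a2 (52.0), Entpd5 (46.8), Enpp3 (17.8), Slc28a1 (7.69) and Nt5e (6.91). The place of Pnp is uncertain, since the sum of its locus averaged 274.6 TPM in WT, above Ada. Among neighbours in that order the WT libraries of Xdh and Pnp overlapped, as did those of Slc28a2 and Entpd5 and those of Slc28a1 and Nt5e, whereas Ada lay above Xdh in each library. Under the TLR4ΔIEC label the order of means was Xdh (156), Pnp (156), Ada (106), Entpd5 (95.3), Slc28a2 (40.3), Nt5e (3.94), Enpp3 (3.01) and Slc28a1 (2.18). There, only Entpd5 and Slc28a2, and Slc28a2 and Nt5e, were neighbours without overlap. Enpp3 stood above Nt5e in each WT library, and below it in TLR4ΔIEC replicates 1 and 3.

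Ratios of 2 genes within a library do not move with its scaling, and 6 were compared by exact two-sided permutation tests, where no p below 0.1 can be reached. Entpd5 over Enpp3 was 4.40, 1.61 and 3.04 in WT and 24.1, 34.2 and 36.8 in the libraries labelled TLR4ΔIEC, with no overlap (log2 difference 3.49, exact p = 0.1, 0.2 after Benjamini-Hochberg adjustment over the 6). That outcome was fixed by the levels above, since Entpd5 was higher and Enpp3 lower in each library labelled TLR4ΔIEC. This ratio is thus no separate test. Nt5e over Enpp3 was 0.418, 0.239 and 0.627 in WT and 1.32, 0.947 and 2.02 in the others (log2 difference 1.78, exact p = 0.1, adjusted 0.2). Enpp3 is the denominator of both, and TLR4ΔIEC replicate 2 gave the lowest Nt5e over Enpp3 of its genotype, still above each WT library.

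Pnp over Ada, the enzymes of adjoining steps, was 0.880, 0.729 and 0.714 in WT and 2.33, 1.04 and 1.80 in the libraries labelled TLR4ΔIEC. As the table splits the reads, Pnp was below Ada in each WT library and above it in each of the others (log2 difference 1.08, exact p = 0.1, adjusted 0.2). The sum of the 3 genes of the Pnp locus was above Ada in all 6 libraries, so that crossing holds only for the uncertain values of Pnp alone. The remaining ratios overlapped between genotypes. Slc28a2 over Slc28a1 had a log2 difference of 2.00 (exact p = 0.4, adjusted 0.6), with ratios of 80.4 and 69.0 in TLR4ΔIEC replicates 1 and 2 but 3.84 in replicate 3, below each WT library. Ada over Nt5e differed by 0.34 (exact p = 0.7, adjusted 0.8) and Xdh over Pnp by −0.20 (exact p = 0.8, adjusted 0.8).

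**Figure D3:**
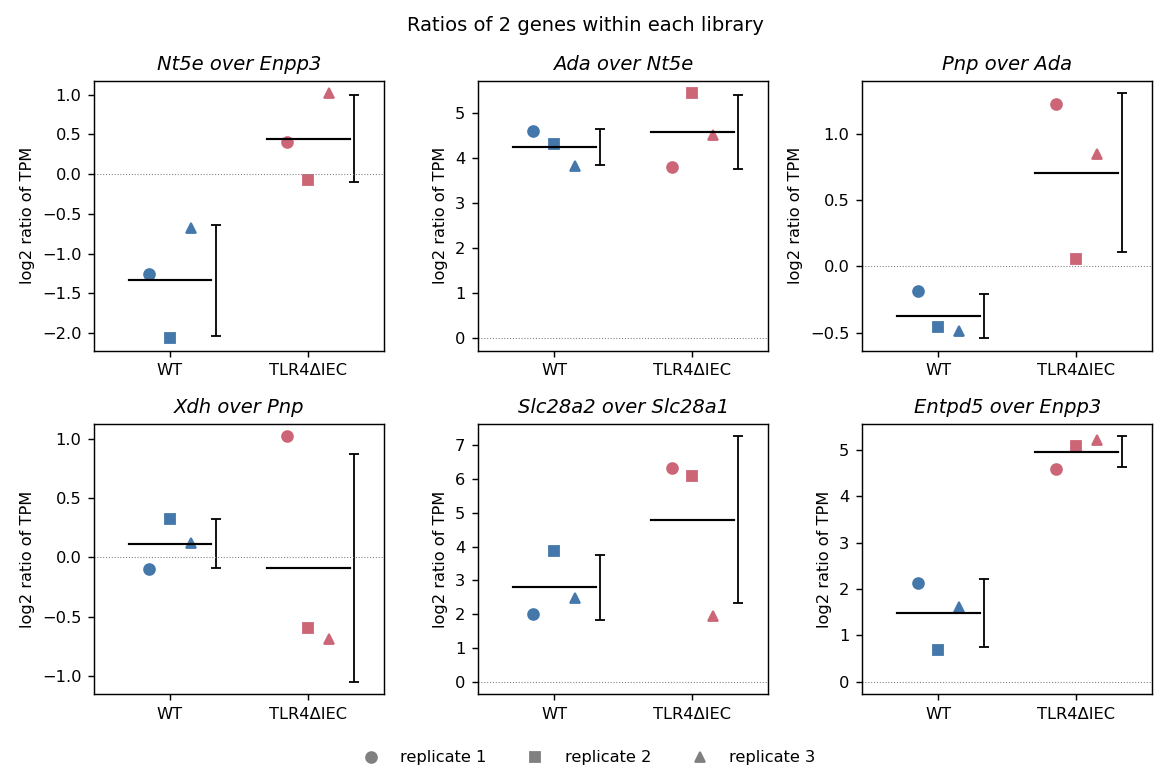
Log2 ratio of the TPM of 2 genes within each library (vertical axis) for 6 pairs; each point is a library, its shape the replicate number, the line the mean and the bar 1 SD (n = 3). Entpd5 over Enpp3, Nt5e over Enpp3 and Pnp over Ada do not overlap between genotypes, while Slc28a2 over Slc28a1 is high in 2 of the 3 TLR4ΔIEC libraries only.

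The wider pathway was followed in 7 lists holding 110 genes, of which 91 were tested. None passed the threshold (limma). Of the 83 tested genes beside the 8 above, 18 had an unadjusted p under 0.05, 15 higher and 3 lower, where 21.2% of all tested genes did, and 22 had genotypes that did not overlap (26.5%, against 27.6% of all). These shares are near those of all genes. The values below describe the genes of smallest p-value in each list, none of which passed.

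Among the 15 tested genes of nucleotide hydrolysis, 7 had positive and 8 negative fold changes (median −0.08). Entpd2, an ectonucleotidase that turns ATP into ADP, averaged 11.9 ± 2.80 TPM in WT and 25.8 ± 7.96 TPM under the TLR4ΔIEC label (SD, n = 3; log2 fold change 1.04, SE 0.26, limma adjusted p = 0.111). Entpd1 (CD39), which takes ATP to AMP and is known from immune cells and endothelium, stood at 5.10 to 9.25 and 1.12 to 4.56 TPM (log2 fold change −1.12, limma adjusted p = 0.165). Cant1, a calcium-dependent nucleotidase, had a log2 fold change of 0.44.

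Among 15 tested genes of purine catabolism the median was 0.21, with 10 positive and 5 negative. Ampd3, an AMP deaminase, averaged 4.73 ± 0.179 TPM in WT and 7.92 ± 1.11 TPM under the TLR4ΔIEC label (log2 fold change 0.63, SE 0.16, limma adjusted p = 0.112). Urad, an enzyme that acts on the products of urate oxidation, had a log2 fold change of −0.62. The 10 salvage genes, which return bases and nucleosides to nucleotides, had a median of 0.28, with values of 0.69 for adenosine kinase Adk and 0.32 for Hprt, which salvages hypoxanthine and guanine. The 14 tested genes of purine synthesis had a median of −0.14, and the libraries overlapped in 13 of them, the exception being Gmpr2, a GMP reductase, at 0.28. Impdh1, an IMP dehydrogenase, had a log2 fold change of −0.37 and Paics of −0.50.

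Among 12 tested carriers the median was −0.04. Abcg2, a urate and drug exporter of the apical membrane, averaged 77.4 ± 19.6 TPM in WT and 179.7 ± 68.1 TPM under the TLR4ΔIEC label, with no overlap (log2 fold change 1.16, SE 0.30, limma adjusted p = 0.115). Slc17a4, an anion and urate transporter, had a log2 fold change of 1.73, with WT replicate 1 and TLR4ΔIEC replicate 1 both at 17.8 TPM, and the nucleobase carrier Slc43a3 of −0.89. Of 11 tested purine receptors, Adora2b, the low-affinity adenosine receptor, stood at 1.31, 5.04 and 1.99 TPM in WT and 0.35, 0.13 and 0.19 TPM under the TLR4ΔIEC label (log2 fold change −1.51, SE 0.38, limma adjusted p = 0.112). It was low in every library, and its highest WT library, replicate 2, was also the highest for Enpp3. The nucleotide receptors P2ry1 and P2ry4 had log2 fold changes of 0.56 and 0.70. In the list of 14 tested pyrimidine genes (median 0.21), Upp2, Tk2 and Uck1 had values of 1.00, 0.56 and 0.38.

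**Figure D4:**
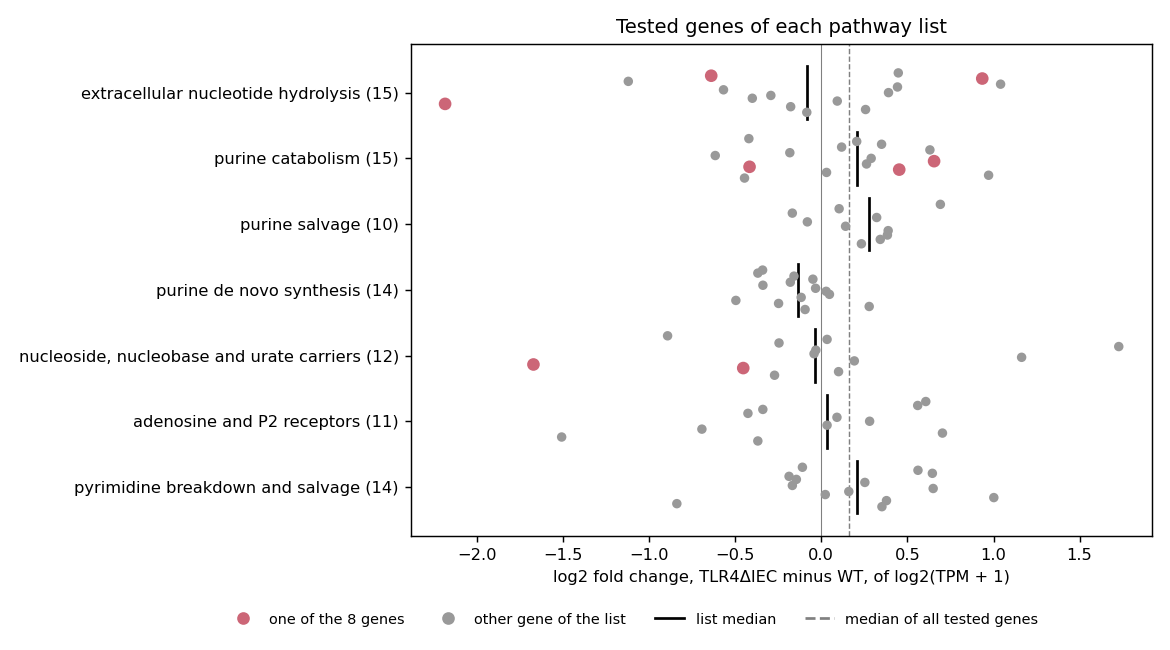
Log2 fold change (TLR4ΔIEC minus WT, of log2(TPM + 1), horizontal axis) of each tested gene in 7 lists, with the number tested in brackets; large points are the 8 genes, black lines the list medians and the dashed line the median of all tested genes. List medians lie between −0.14 and 0.28, and Enpp3 is the lowest point of all.

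Genes whose log2(TPM + 1) most resembled each of the 8 over the 6 libraries were listed by Pearson's r, as a description, since the points share the genotypes and the scaling. For Enpp3 they were Glud1, a glutamate dehydrogenase (r = 0.981), and Apoa4, an apolipoprotein of chylomicrons (r = 0.972), which fell from 454 to 904 TPM in WT to 90.7 to 117 TPM under the TLR4ΔIEC label (log2 fold change −2.55, limma adjusted p = 0.0350). For Entpd5 they were Tex264 and Itpkc (0.999 and 0.998), for Pnp Baat, which conjugates bile acids, and Glmp (both 0.999), and for Nt5e Cenpf and Ccdc137 (0.986 and 0.955). Ada most resembled Hnf4aos and Lpar5 (0.982 and 0.962). Hnf4aos is an antisense RNA, which cannot be told from its sense partner without strand. Xdh most resembled Rasd1 and the immediate early gene Nr4a1 (0.991 and 0.990), both highest in TLR4ΔIEC replicate 1. Slc28a1 most resembled Trim38 and Cyp2u1 (0.988 and 0.973), and Slc28a2 the acyl-CoA synthetase Acsl5 and Lcp2 (0.969 and 0.944).

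Markers of gut region and cell type also differed between the genotypes. The summed level of 11 genes of the proximal small intestine was 687 to 1504 TPM in WT and 221 to 369 TPM under the TLR4ΔIEC label, with 6 of the 10 tested lower in each of the latter and 2 higher. Lactase (Lct), the transcription factor Gata4 and the sphingomyelinase Enpp7 fell, and the calcium-binding S100g rose (limma adjusted p = 0.0316, 0.0494, 0.0350 and 0.0350). The sum of 10 ileal genes was 3718 to 8703 TPM and 11480 to 37378 TPM, with 6 of 10 higher in each. Fabp6 made up most of that sum, at 2352 to 7321 TPM in WT and 9526 to 34630 TPM under the TLR4ΔIEC label. None of the 10 passed, and 2 had negative fold changes. The proximal sum was highest in WT replicate 2, as was Enpp3. The 15 enterocyte markers summed to 13416 to 17115 and 16308 to 19241 TPM (5 higher, 4 lower in each, of which Lct passed), and 9 markers of the villus tip to 8090 to 9438 and 10236 to 13305 TPM (4 higher and 1, Apoa4, lower). Apoa1 made up most of the villus tip sum, at 5408 to 6326 TPM in WT and 7505 to 10101 TPM under the TLR4ΔIEC label. Epcam, Cdh1, Vil1 and Cdh17, a choice from these lists of genes that epithelial cells share, were higher in each library labelled TLR4ΔIEC, as were 24.1% of all tested genes. Their log2 fold changes were 0.67, 0.69, 0.36 and 0.36, beside 0.65 for Pnp and 0.93 for Entpd5, and none passed. The 4 enterocyte markers lower in each (3.53% of all tested genes were) were Lct, Slc15a1, Slc2a5 and Slc5a1, and 5 of the 8 genes had negative fold changes. The part of region or of epithelial or villus cell content in the values of the 8 genes was not tested.

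Paneth cell markers summed to 85788 to 99771 TPM in WT and 16036 to 61488 TPM in the others, with all 10 fold changes negative (median −1.54) and 8 of the 10 lower without overlap. Goblet cell markers summed to 9555 to 10944 and 16430 to 25631 TPM, with all 7 fold changes positive (median 0.93) and 5 of the 7 higher without overlap. Alpha-defensins, products of Paneth cells, took 25.3% to 28.7% of the TPM in WT and 5.21% to 18.4% in the others, and at a fixed total a smaller share leaves more for all other genes. Over the 4 other scalings the log2 fold change ran from 0.62 to 0.79 for Entpd5 and from 0.33 to 0.51 for Pnp, and from −2.55 to −2.30 for Enpp3.

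Enpp3 is also a known marker of basophils and mast cells. A list of 12 genes of those cells summed to 153 TPM in WT replicate 1 and to 10.1 to 15.7 TPM in the other 5 libraries, with Cma1 at 0 in all 6. Mcpt1 (102 TPM) and Mcpt2 (36.4 TPM) made up most of the sum in WT replicate 1, which had the lowest Enpp3 of the WT libraries. The part of these cells in the level of Enpp3 was not tested. Nt5e, Ada and Entpd1 are also expressed by lymphocytes. The 8 markers of T and NK cells summed to 38.1 to 117 TPM in WT and 35.7 to 61.5 TPM under the TLR4ΔIEC label. The 8 of B and plasma cells summed to 8405 to 9553 and 1128 to 4297 TPM, with 4 of the 8 lower in each of the latter, and the part of these cells in the lower Nt5e was not tested.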

How the data were processed

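Per the labels' protocols, TRIzol and DNase I were used to prepare total RNA of the 6 samples for Illumina libraries. Reads were handled with fastp, HISAT and RSEM on GRCm38.p5, per the submitters' processing notes. Tool versions, and any use of strand, were not given in the sources used here. Per the file headers, the values the authors deposited are TPM. The authors' group means were not used. TPM share a fixed total, so an abundant gene lowers all others, and no counting interval can be given. Sample titles gave genotype and replicate number. The series' design states 3 mice of each genotype, and a number shared by 2 genotypes marks no shared animal.

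Genes averaging 1 TPM or more entered limma 3.58.1 as log2(TPM + 1) (R 4.3.3; lmFit, eBayes with trend, two-sided, genotype as the single term), adjusted over all 13458. In data simulated from these 13458 genes, 35 of 100 genes changed by 1 and 79 of 100 changed by 2 on the log2 scale were recovered, with 6 false calls. The simulated noise was normal, independent between genes and of equal spread in both genotypes. In the real libraries the observed spread differed between genotypes for some genes. The coefficient of variation was 5.53% in WT and 57.8% under the TLR4ΔIEC label for Ada, and 34.0% and 4.88% for Nt5e. The other properties need not hold either, so the recovery in the real data is unknown. Genes were named by a rule: the 8 genes, up to 3 other genes of smallest p-value in each list, and the 2 most alike genes of each of the 8. One gene that the rule names is not reported here. The 8 genes, the lists and the alternatives were chosen with earlier results of these data known. Pnp2 falls under the rule and Gm49342 was added after its values were seen. The rule does not cover marker genes named singly, such as Epcam and Lct. The 52093 identifiers found in GENCODE M21 (GRCm38) take their coordinates from it. Coding identities come from global alignments of the longest coding sequence of each gene in that release. Marker and pathway lists are described by counts, medians and sums, with no set test. Figures were drawn with matplotlib 3.10.9.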

Additional observations from a re-analysis of the deposited data

How the results depend on the processing

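Refits that changed only the filter, the eBayes settings or the replicate block could not move a fold change. Over 143 refits of the 8 genes, these included, the fold change kept its direction in 142. The exception was Ada without TLR4ΔIEC replicate 1 (0.0076; −0.85 without replicate 2). The threshold was crossed in 3: Enpp3 without TLR4ΔIEC replicate 1 and with array weights, and Pnp without TLR4ΔIEC replicate 1. The number of the 8 that passed was thus 1 with array weights and 0 to 2 with a library left out, and of the wider pathway 1 and 0 to 3 (Pnp2 being the other). At a mean of at least 5 TPM Slc28a1 had no value. Of all genes, 16 passed, against 0 with no filter (limma; 3377 at an unadjusted p under 0.05), 7 at a mean of at least 5 TPM, 136 with array weights, and 0 (without WT or TLR4ΔIEC replicate 2) to 367 (without TLR4ΔIEC replicate 1) with a library left out; the cause was not tested. With the replicate number as a block 1 of all genes and 0 of the 8 passed. The log2 differences of the ratios were then the same by construction, at 1.78 for Nt5e over Enpp3 and 3.49 for Entpd5 over Enpp3 (exact permutation within pairs, p = 0.25 for both, the smallest possible). Deviations of same-numbered libraries correlated at −0.037, 0.035 and 0.118, and TLR4ΔIEC replicate 1 correlated best with WT replicate 3, so the numbers were not taken to pair the mice. With a library left out, the log2 difference ran from −0.093 to 0.73 for Ada over Nt5e, from −0.76 to 0.097 for Xdh over Pnp, from 0.83 to 1.41 for Pnp over Ada and from 1.23 to 3.43 for Slc28a2 over Slc28a1. Other scalings moved the median of all genes from 0.16 to between −0.13 and 0.028. The depth is unknown, and 3 mice a genotype limit the precision.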

Other observations

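TLR4ΔIEC replicate 1, the library with the highest Xdh, also held the highest levels of other nucleotide enzymes. The choice of these genes followed their values, and none passed across the genome. Upp1, a uridine phosphorylase, had WT values of 339, 638 and 497 TPM, next to 1618, 995 and 258 TPM under the TLR4ΔIEC label (limma adjusted p = 0.608). Samhd1, which degrades deoxynucleotides, had WT values of 36.7, 41.1 and 39.1 TPM, next to 123, 34.2 and 29.4 TPM in the others (limma adjusted p = 0.728). Nt5c3, a pyrimidine nucleotidase, stood at 41.3 TPM in that library and at 14.2 to 21.9 TPM in the other 5. The interferon-stimulated genes Isg15 and Ifit1 stood at 1555 and 312 TPM there, against 33.7 to 371 and 7.75 to 47.1 TPM in the other 5 libraries. Whether these levels are linked was not tested, and a single library cannot speak for its genotype.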
